A study of Mus musculus with 8 samples.

Results

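Vmn2r88 and Vmn2r89 are 2 vomeronasal type 2 receptor (V2R) genes that lie next to each other on mouse chromosome 14. They were taken by name from a table of 27532 genes, in which 124 carry a Vmn2r symbol with a number. The pair was selected on its TPM in these libraries, because its share of V2R expression differed between genotypes, so all genotype values of the pair below are a description, with no test. Expression had been measured by RNA sequencing of polyadenylated RNA from the vomeronasal organ (VNO) of 8 adult mice, 4 heterozygous (Tex15Het) and 4 knockout (Tex15KO) for Tex15, one organ sample per library and animal. Tex15 is a gene known for its part in piRNA-directed DNA methylation in male germ cells. The labels give neither the strain nor the structure of the Tex15 allele, and the controls carry 1 knockout allele, so no wild-type animal was analysed here. Heterozygous replicate 1 was a male of 11.4 weeks, and heterozygous replicates 2, 3 and 4 were females of 14.6, 11.9 and 11.9 weeks. Knockout replicate 1 was a female of 11.9 weeks, and knockout replicates 2, 3 and 4 were males of 11.9, 11.9 and 12.1 weeks. Sex was therefore partly confounded with genotype, with 1 heterozygous male and 1 knockout female. Heterozygous replicates 1 and 2 had lower animal numbers than the remaining 6 animals, which were numbered in the 7100s. The labels do not say whether this marks a batch.

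The VNO detects pheromones and other social cues. Its sensory neurons fall into an apical layer, which uses V1R receptors and the G protein Gnai2, and a basal layer, which uses V2R receptors and the G protein Gnao1. V2Rs are class C G protein-coupled receptors with a long extracellular ligand-binding domain in front of the membrane-spanning domain. A basal neuron expresses 1 or few of the many variable V2R genes together with a family C co-receptor from the group Vmn2r1 to Vmn2r7, and some basal neurons also express H2-Mv class Ib molecules. Vmn2r88 is known as a receptor for haemoglobin. No ligand is named here for Vmn2r89.

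Values are TPM (reads per exon base scaled to a sum of 1000000 in each library). Recovered depth was 17401524 to 25797298 reads per library, and knockout replicate 1 had the fewest reads and 2988 genes at 0, against 1287 to 1808 in the others. Tex15 itself had a mean of 2.52 ± 0.279 TPM in the heterozygous group against 1.09 ± 0.155 TPM in the knockout group (SD, n = 4), and the groups did not overlap. Its log2 difference was −1.22 relative to the median gene (SE 0.38, limma adjusted p = 0.794), so the levels followed the labels although the gene was not called. Neuron markers were present in every library, with Gnao1 at 11.5 TPM or more and Omp at 66.6 TPM or more. Of 6 genes listed for mature vomeronasal neurons, 5 were in the deposited table. Omp, the olfactory marker protein of mature sensory neurons, was at 66.6 TPM in heterozygous replicate 1 and at 571 to 943 TPM in the other 7 libraries.

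Vmn2r88 (ENSMUSG00000000606) spans chr14:51410820-51420721 on the plus strand of GRCm38, and Vmn2r89 (ENSMUSG00000070448) spans chr14:51451857-51464172 on the same strand, 31135 bases further on. Both are protein-coding in GENCODE M21, whereas the deposited table labels Vmn2r89 a polymorphic pseudogene. RefSeq promoter windows of GRCm38.p6 reach from 250 bases before to 50 after each RefSeq start. The Vmn2r88 window is chr14:51410751-51411050 and the Vmn2r89 window chr14:51451712-51452011. The gene starts of M21 lie further upstream than those of RefSeq, so 231 of the 300 bases of the first window and 155 of those of the second are within the M21 genes. The bases before the M21 starts, chr14:51410751-51410819 and chr14:51451712-51451856, are printed here because the 2 genes differed in their levels while the stretch that both windows hold is nearly the same. Capitals mark the bases that differ between them in that stretch.
Vmn2r88: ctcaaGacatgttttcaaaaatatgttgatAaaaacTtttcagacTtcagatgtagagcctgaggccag
Vmn2r89: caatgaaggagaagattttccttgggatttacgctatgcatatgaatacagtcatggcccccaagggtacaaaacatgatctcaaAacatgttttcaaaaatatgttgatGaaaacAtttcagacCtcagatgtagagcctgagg
The windows share 220 bases, bases 1 to 220 of the first and bases 81 to 300 of the second, so the RefSeq starts are 80 bases apart in the alignment, whereas the M21 starts are 4 bases apart. Of these bases 212 are identical (96.4%) and 8 differ. Before the starts of both M21 genes lie 65 of the shared bases, of which 61 are identical and 4 differ, and most of the rest is annotated first exon in M21. The longest identical run has 129 bases, and of 32817 RefSeq promoter windows 2 hold it, those of the pair. The next closest window belongs to Vmn2r121 on chromosome X, 94.1% identical to that of Vmn2r88 over 221 bases and 93.3% to that of Vmn2r89 over 299 bases. Dinucleotide CG, the main site of DNA methylation, occurs 0 times in the Vmn2r88 window and 2 times in the Vmn2r89 window, against a median of 7 over all promoter windows. The letters GCCNNNGGC, read by AP-2 factors such as Tfap2e of basal neurons, occur 1 time in each window, and 16.6% of all windows hold them on either strand. The letters CCCNNGGG, read by EBF factors, occur 0 times and 1 time (13.7% of all windows), and TAATTA, read by homeodomain factors, 0 times in both (5.30% of all windows). E-box letters CANNTG occur 1 time and 2 times (72.3% of all windows). In the Vmn2r89 window the EBF letters, 1 of the E-boxes and 1 CG lie in the first 80 bases. The Vmn2r88 window does not reach the corresponding bases, so these counts do not compare like stretches of the 2 genes. Such matches describe the letters and not bound sites.

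The annotated transcripts of the 2 genes differ in their coding length. The longest Vmn2r88 protein of GENCODE M21 has 857 residues from 6 coding exons, as is usual for a V2R, and 7 of the 12 Vmn2r88 models encode more than 700 residues. The longest Vmn2r89 protein has 507 residues from 5 coding exons. Of the 5 Vmn2r89 models 2 are protein-coding, 2 are annotated as nonsense-mediated decay and 1 as a retained intron. Over those 507 residues the proteins are 89.0% identical, aligned to residues 1 to 515 of Vmn2r88, so the annotated Vmn2r89 protein ends before the membrane-spanning domain. The exon of 124 bases that comes before the last coding exon of Vmn2r88 is present in 7 of the Vmn2r88 models and in 0 of the Vmn2r89 models. The last coding exon of Vmn2r88, which in V2Rs encodes the membrane-spanning domain, has 908 bases, of which 905 align without gaps and with 95.1% identity to bases 1704 to 2608 of the longest protein-coding Vmn2r89 transcript. The coding sequence annotated there ends at base 1706. A matching stretch is thus present in the annotated Vmn2r89 transcript, after the annotated stop. In 100-base windows of the longest coding transcripts 97.1% (Vmn2r88) and 98.1% (Vmn2r89) were unique among M21 transcripts, and 1.61% and 1.24% were shared with each other. The 2 genes can therefore be told apart by sequence over nearly all of these transcripts. Exon bases found only in their other models were not examined.

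Vmn2r89 was the member whose level differed between genotypes, and the levels of Vmn2r88 overlapped. Vmn2r88 was at 36.4, 25.4, 74.0 and 49.9 TPM in heterozygous replicates 1 to 4 and at 29.3, 46.5, 45.9 and 48.3 TPM in knockout replicates 1 to 4. The groups overlapped, with the highest and the lowest value both in heterozygous libraries. Vmn2r89 was at 26.1, 13, 41.5 and 28.4 TPM in heterozygous replicates 1 to 4 and at 79.4, 94.9, 96.9 and 71.3 TPM in knockout replicates 1 to 4. Every knockout library was above every heterozygous library, which among all 20305 tested genes held for 96 (0.473%, knockout above heterozygous). The means were 46.4 ± 20.9 and 42.5 ± 8.83 TPM for Vmn2r88 and 27.2 ± 11.7 and 85.6 ± 12.4 TPM for Vmn2r89 (SD, n = 4), a ratio of means of 0.916 and 3.14. In a whole organ, fewer cells of a type and less RNA per cell cannot be told apart.

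**Figure D1:**
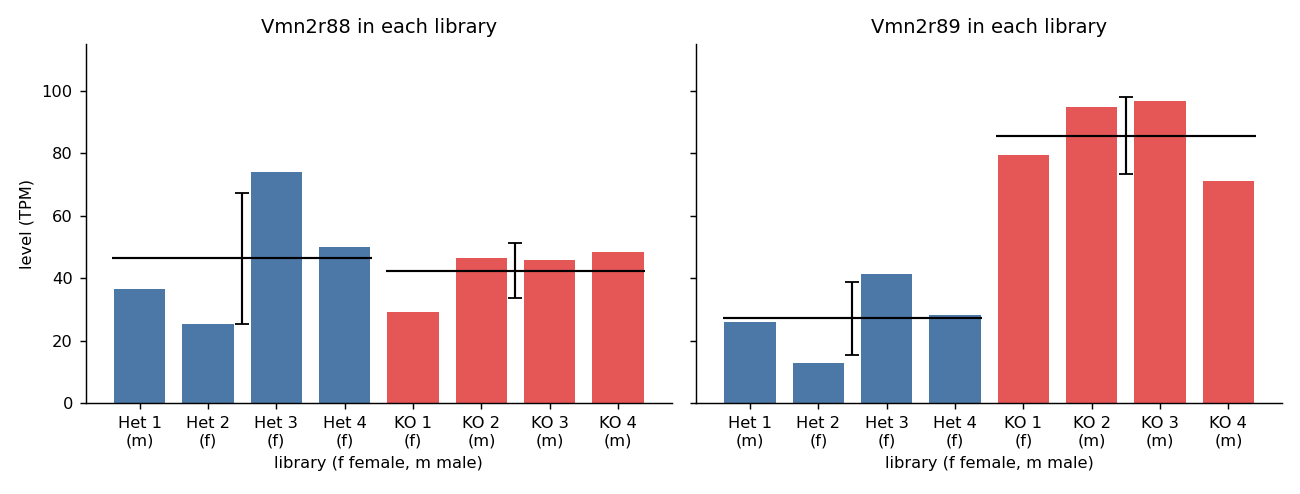
Level of Vmn2r88 (left) and Vmn2r89 (right) in TPM in each of the 4 heterozygous (Het, blue) and 4 knockout (KO, red) libraries, with sex under each bar, and the group mean (line) and SD (error bar). For Vmn2r88 the knockout range of 29.3 to 48.3 TPM lies within the heterozygous range of 25.4 to 74.0 TPM, and for Vmn2r89 the knockout libraries start at 71.3 TPM, above the highest heterozygous library at 41.5 TPM.

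Much of the spread within the heterozygous group was common to many genes. The median-ratio scaling factor, which is the median over genes of a library against the gene-wise geometric mean, ran from 0.666 in heterozygous replicate 2 to 1.39 in heterozygous replicate 3. Within the heterozygous group these libraries had the lowest and the highest level of both members. After division by it Vmn2r88 was at 46 ± 6.21 and 39.7 ± 9.88 TPM and Vmn2r89 at 27.3 ± 6.14 and 81.6 ± 22.9 TPM (SD, n = 4). For Vmn2r89 the groups still did not overlap, with a heterozygous maximum of 34.0 and a knockout minimum of 53.3 TPM. In the limma fit of log2(TPM + 0.5) with genotype and sex as terms, the median gene differed by 0.19 between genotypes, and log2 differences are given relative to it. They were −0.33 (SE 0.39) for Vmn2r88 and 1.49 (SE 0.39) for Vmn2r89. Over 124 numbered V2R genes Vmn2r89 ranked 8, 10, 8 and 9 by TPM in heterozygous replicates 1 to 4 and 1, 1, 1 and 3 in knockout replicates 1 to 4. Vmn2r88 ranked 3, 2, 2 and 2 in the heterozygous and 4, 5, 5 and 5 in the knockout libraries. These ranks depend on gene length. With both members rescaled to their longest protein-coding transcript and the other genes as deposited, Vmn2r89 ranked 3, 5, 3 and 5 in heterozygous libraries (41.5 ± 17.8 TPM) and 1 in all 4 knockout libraries, and Vmn2r88 ranked 4, 2, 2 and 2 in heterozygous libraries.

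By group means the highest V2R genes in heterozygous libraries were Vmn2r43 on chromosome 7 (52.5 ± 20.7 TPM), Vmn2r88 and the co-receptor Vmn2r2 (42.9 ± 16.6 TPM), which lie within their spread of each other. In knockout libraries they were Vmn2r89, Vmn2r21 (73.3 ± 19.1 TPM) and Vmn2r20 (72.2 ± 18.5 TPM), the last a pair of neighbours on chromosome 6, and these 3 also lie within their spread of each other. Vmn2r88 came next at 42.5 TPM. Of the 105 other V2R genes that were tested 6 rose and 37 fell in knockout libraries (limma, adjusted p under 0.05), where 119 of 20305 genes (0.586%) were called in either direction. Their median log2 difference from the median gene was −1.52, with 18 of the 105 above 0. Vmn2r88 at −0.33 was thus less far below the median gene than the median V2R gene, and 7 tested V2R genes had a larger positive difference than Vmn2r89.

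**Figure D2:**
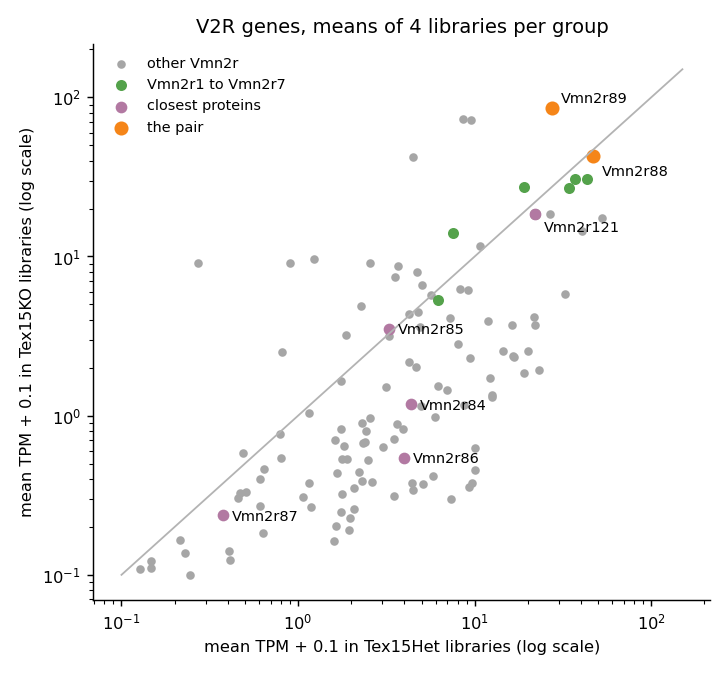
Mean TPM + 0.1 of each of the 124 numbered V2R genes in heterozygous (x) and knockout (y) libraries, both on log scales, n = 4 per group; the line marks equal means. Vmn2r89 lies above the line at 27.2 and 85.6 TPM, Vmn2r88 just below it at 46.4 and 42.5 TPM, with the co-receptors Vmn2r1 to Vmn2r7 (green) spread from 5.23 to 42.9 TPM on both sides of the line, and most other V2R genes lie below the line.

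The ratio of the 2 genes within a library does not depend on how that library is scaled. Vmn2r89 over Vmn2r88 in TPM was 0.715, 0.513, 0.561 and 0.569 in heterozygous replicates 1 to 4 and 2.71, 2.04, 2.11 and 1.48 in knockout replicates 1 to 4. The groups did not overlap, and the gene that was higher differed, Vmn2r88 in all 4 heterozygous and Vmn2r89 in all 4 knockout libraries. The mean log2 ratio was −0.77 ± 0.20 and 1.03 ± 0.36 (SD, n = 4), a difference of 1.80. That order in heterozygous libraries rests on gene length. TPM divides by a gene length, and the annotation behind it and the handling of reads that match several genes are not given in the sources used here. The summed exons of M21, 4597 bases for Vmn2r88 and 9020 for Vmn2r89, are those with which reads were recovered here, and the latter include the retained-intron model. In recovered reads Vmn2r88 had 2742, 1673, 3121 and 2642 in heterozygous replicates 1 to 4 and Vmn2r89 had 3849, 1685, 3437 and 2950, so Vmn2r89 had more reads in each. In knockout replicates 1 to 4 Vmn2r88 had 1305, 2561, 2240 and 2365 reads and Vmn2r89 had 6930, 10254, 9283 and 6852. Per base of the longest protein-coding transcript (4573 and 5926 bases) the mean ratio was 0.893 ± 0.132 for heterozygous animals and 3.16 ± 0.762 for knockout animals (SD, n = 4), the former from 0.777 to 1.08. The log2 difference of 1.80 between genotypes is the same on every length scale, because length is a constant factor.

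Vmn2r89 took 50.2% to 58.4% of the reads of the pair in heterozygous and 74.3% to 84.2% in knockout libraries. The highest heterozygous library, replicate 1, had 58.4% (95% Wilson interval 57.2% to 59.6%, 6591 reads), and the lowest knockout library, replicate 4, had 74.3% (73.4% to 75.2%, 9217 reads). These intervals cover counting error within 1 library only and not the spread between animals. The labels' protocols name no molecular identifiers, so the reads may not be independent counts.

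Against the co-receptors of the same neuron layer Vmn2r88 had nearly the same ratio in the 2 groups. The 7 family C genes summed to 86.6 to 248 TPM in heterozygous and 118 to 177 TPM in knockout libraries. Vmn2r88 over that sum was 0.228, 0.293, 0.298 and 0.283 in heterozygous replicates 1 to 4 and 0.248, 0.288, 0.301 and 0.272 in knockout replicates 1 to 4, with means of 0.276 ± 0.0325 and 0.277 ± 0.0229 (SD, n = 4). Vmn2r89 over the same sum was 0.163, 0.150, 0.168 and 0.161 in heterozygous replicates 1 to 4 and 0.671, 0.588, 0.636 and 0.402 in knockout replicates 1 to 4. The heterozygous libraries lay within 0.150 to 0.168 and the knockout libraries were both higher and more spread, with replicate 4 lowest. Relative to Gnao1, which was at 20.8 ± 8.25 and 19.7 ± 3.22 TPM, Vmn2r88 stood at 2.20 ± 0.145 and 2.15 ± 0.355 and Vmn2r89 at 1.30 ± 0.167 and 4.44 ± 1.02 (SD, n = 4). Relative to Omp the groups overlapped for Vmn2r89, from 0.0208 to 0.391 in heterozygous and from 0.0952 to 0.139 in knockout libraries. Heterozygous replicate 1, the library with the low Omp level, made the overlap, and the other 3 heterozygous libraries had at most 0.0440.

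**Figure D3:**
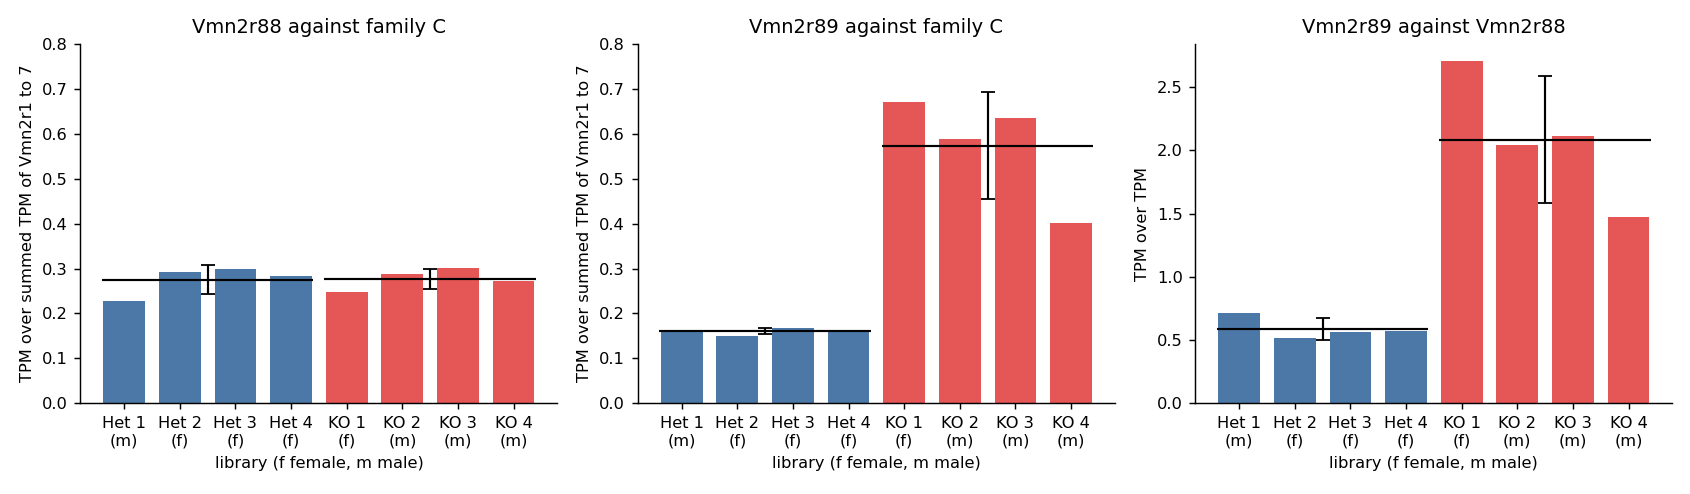
Ratio of Vmn2r88 (left) and Vmn2r89 (middle) to the summed TPM of the co-receptors Vmn2r1 to Vmn2r7, and of Vmn2r89 to Vmn2r88 (right), in each library (Het blue, KO red), with group mean (line) and SD (error bar). Vmn2r88 against the co-receptors has means of 0.276 and 0.277, while both ratios of Vmn2r89 are higher in all 4 knockout libraries.

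As a share of all numbered V2R TPM the pair held 7.34%, 7.55%, 8.13% and 7.67% in heterozygous replicates 1 to 4 and 20.2%, 17.8%, 18.1% and 14% in knockout replicates 1 to 4. The difference of 9.88 percentage points in the means divided into 0.862 for Vmn2r88 and 9.02 for Vmn2r89. Vmn2r89 alone held 2.83% ± 0.212 and 11.9% ± 2.64, and Vmn2r88 4.84% ± 0.399 and 5.70% ± 0.185 (SD, n = 4). For Vmn2r88 the shares did not overlap either, with a heterozygous maximum of 5.21% and a knockout minimum of 5.46%, although its TPM overlapped. On the length of the longest protein-coding transcript the shares were 4.25% ± 0.314 and 16.9% ± 3.58 for Vmn2r89 and 4.79% ± 0.397 and 5.40% ± 0.208 for Vmn2r88 (SD, n = 4), where the groups of Vmn2r88 overlapped and the parts of the difference were 12.7 and 0.604 percentage points. The sum over all numbered V2R genes, its denominator, was 950 ± 379 and 742 ± 140 TPM (SD, n = 4). Among V2R genes off chromosomes 6 and 7 the Vmn2r88 share was 9.66% ± 0.674 and 9.92% ± 0.668 and overlapped, and the Vmn2r89 share was 5.65% ± 0.437 and 20.5% ± 3.94 (SD, n = 4) and did not. In the same libraries the neighbouring genes Vmn2r20 to Vmn2r27 of chromosome 6 held 24.4% to 29.1% of V2R TPM in knockout and 2.46% to 2.81% in heterozygous libraries, and Vmn2r28 to Vmn2r56 of chromosome 7 held 8.89% to 10.7% and 39.8% to 41.6%.

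**Figure D4:**
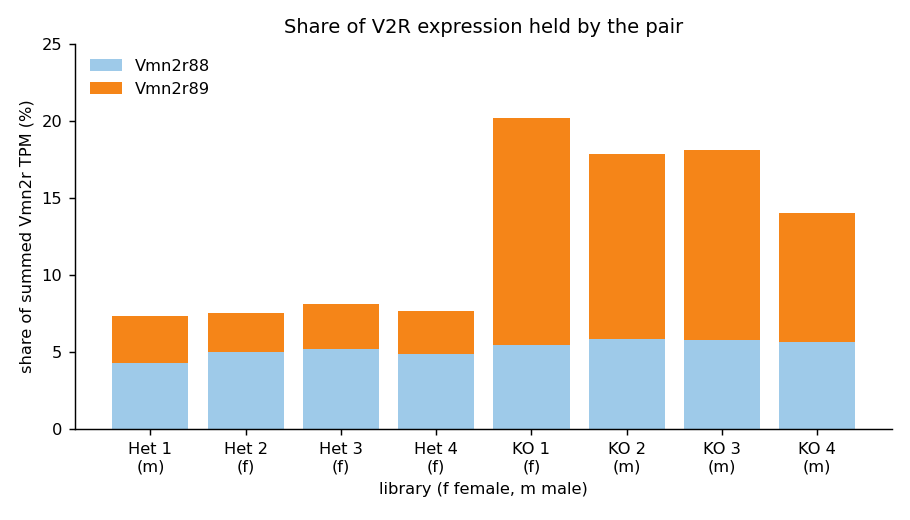
Share of the summed TPM of numbered V2R genes held by Vmn2r88 (light blue) and Vmn2r89 (orange, stacked) in each library, in percent. The pair holds 7.34% to 8.13% in heterozygous and 14% to 20.2% in knockout libraries, and the Vmn2r88 part lies between 4.28% and 5.87% throughout.

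Sex was not used to choose the pair, so it gave a contrast in which the members could be tested over all genes. Of 20305 genes 10 were called by sex (0.0492%, limma adjusted p under 0.05), of which 7 were higher in males and 3 in females, and 460 had an unadjusted p under 0.05. Neither member was called. The fitted male minus female log2 difference was 0.18 (SE 0.39, limma adjusted p = 1) for Vmn2r88 and 0.10 (SE 0.39, limma adjusted p = 1) for Vmn2r89, with unadjusted limma p-values of 0.655 and 0.804. The genotype by sex term, which asks whether the genotype difference was larger in males, was called for 27 genes (0.133%), 26 higher and 1 lower. For the pair it is a description with no test, since it splits the genotype difference on which the pair was selected. Its fitted value was 0.98 (SE 0.79) for Vmn2r88 and 0.06 (SE 0.80) for Vmn2r89. The median gene had a value of 0.55 in that term, and relative to it the members stood at 0.43 and −0.48. Each value rests on 1 heterozygous male and 1 knockout female and the standard errors are large, so a difference between sexes of the size of the error was not detectable. In females Vmn2r89 had a mean of 27.6 TPM in 3 heterozygous libraries and 79.4 TPM in the knockout library, and in males 26.1 TPM in the heterozygous library and a mean of 87.7 TPM in 3 knockout libraries. For Vmn2r88 these values were 49.7 and 29.3 TPM in females and 36.4 and 46.9 TPM in males, so the difference had opposite signs in the 2 sexes as deposited. After median-ratio scaling they were 45.4 and 30.5 TPM in females and 47.5 and 42.7 TPM in males, so the sign was then the same. Among the 6 animals of the 7100s, Vmn2r89 was at 28.4 to 41.5 TPM in 2 heterozygous and 71.3 to 96.9 TPM in 4 knockout libraries, and Vmn2r88 at 49.9 to 74.0 and 29.3 to 48.3 TPM. For Vmn2r88 these groups did not overlap as deposited, but after median-ratio scaling they did, at 45.2 to 53.1 and 30.5 to 53.6 TPM. The animals numbered below the 7100s included no knockout and give no genotype difference of their own.

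Genes around the pair were examined for position alone. Of 46 listed genes within 1 Mb on either side 36 were tested and 0 were called by genotype (limma), against 0.586% of all tested genes. An unadjusted p under 0.05 (limma) was held by 630 of all 20305 tested genes and by 1 of these 36. Their median log2 difference from the median gene was 0.01, with 19 of the 36 above 0. The median of their absolute differences was 0.16, against 0.15 over all tested genes. The nearest listed gene before the pair was Gm7107, a processed pseudogene at 0.0352 ± 0.0436 and 0.148 ± 0.108 TPM (SD, n = 4), too low to be tested. The nearest after it was Mettl17, which encodes a mitochondrial methyltransferase-like protein, at 6.91 ± 3.33 and 8.10 ± 2.31 TPM (log2 difference 0.23, SE 0.43). Snord8, a small nucleolar RNA 745613 bases after the pair, had the largest difference, 1.68 (SE 0.59, limma adjusted p = 0.392). It was called when heterozygous replicate 3 or replicate 4 was left out (limma adjusted p = 0.0381 and 0.0251). No neighbour was as far below the median gene as Gm8518, at −1.03 (SE 0.40).

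**Figure D5:**
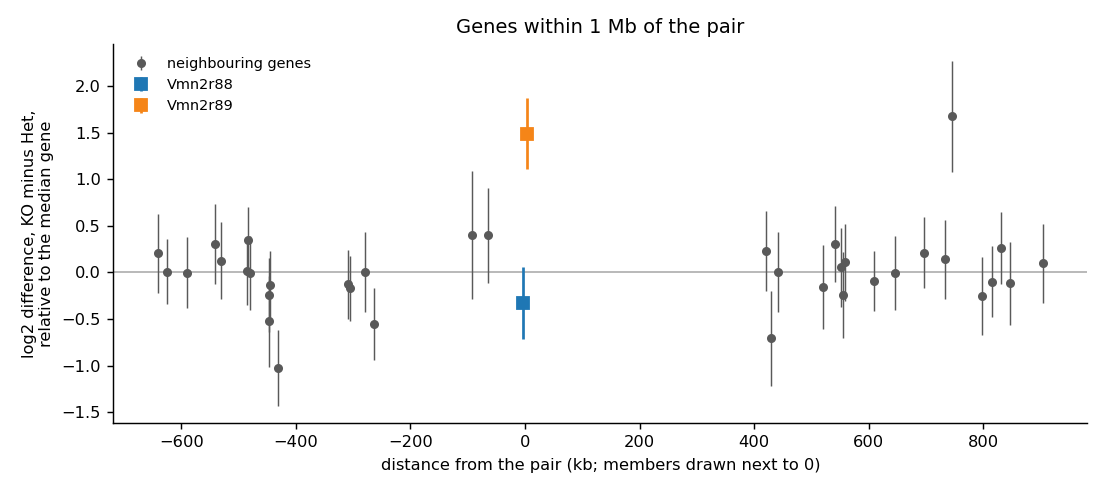
Log2 difference between knockout and heterozygous libraries relative to the median gene, with its standard error, for the 36 tested genes within 1 Mb of the pair (grey) by distance in kilobases, and for Vmn2r88 (blue) and Vmn2r89 (orange). Vmn2r89 is at 1.49 and Vmn2r88 at −0.33, while the neighbours have a median of 0.01 and 1 of them, Snord8 at 1.68, lies above Vmn2r89.

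The V2R genes with the most similar proteins were set beside the pair. Vmn2r121 on chromosome X is 90.8% identical to Vmn2r88 and 88.9% to Vmn2r89, and stood at 21.8 ± 11.8 and 18.3 ± 3.71 TPM (SD, n = 4), a log2 difference of 0.03 (SE 0.40, limma adjusted p = 1). The next are genes of a chromosome 10 group with 74.2% to 80.4% identity. Vmn2r86 fell from 3.88 ± 1.37 to 0.445 ± 0.223 TPM (log2 difference −2.53, SE 0.42, limma adjusted p = 0.00602). Vmn2r84 was at 4.27 ± 1.34 and 1.08 ± 0.458 TPM (log2 difference −1.95, SE 0.42, limma adjusted p = 0.0769), and Vmn2r87 was too low to be tested at 0.275 ± 0.0979 and 0.136 ± 0.0614 TPM. Vmn2r85 was at 3.15 ± 1.54 and 3.41 ± 0.662 TPM (log2 difference 0.04, SE 0.43, limma adjusted p = 1), so the levels of these relatives were not all lower in knockout libraries. The median identity of the other V2R proteins to Vmn2r88 was 47.9%.

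Over the 8 libraries the 2 members were not each other's nearest pattern. Pearson's r of log2(TPM + 0.5) between them was 0.335, as a description over libraries that differ in depth and in the levels of cell type markers. The 5 tested genes most like Vmn2r88 had r of 0.985 to 0.995. They were Ptprr, a receptor-type tyrosine phosphatase, Agpat5, an acyltransferase of phospholipid synthesis, Syt4, a synaptotagmin of vesicle release, Mcoln3, a cation channel of endosomes, and Rab39b, a small GTPase of vesicle traffic. All 5 lay within 0.34 of the median gene in their genotype difference, from −0.34 (Rab39b) to −0.20 (Mcoln3). The 5 most like Vmn2r89 were A030001D20Rik, Vmn1r13, Vmn1r-ps14, Vmn2r20 and Vmn2r21, with r of 0.959 to 0.975. The last 4 lie on chromosome 6, and their genotype log2 differences were 1.81, 2.42, 2.58 and 2.72. These genes were picked for following Vmn2r89 over the same 8 libraries, so a genotype difference was fixed by the choice and no test is given.

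Partners of V2Rs in the basal neuron and markers of the cell types in the organ were described from 16 lists. Of their 108 tested genes 1 was called by genotype, against 0.586% of all genes. None of the 7 family C co-receptors was called (limma, 0 at an unadjusted p under 0.05). Their log2 differences relative to the median gene were 0.26 for Vmn2r1, −0.71 for Vmn2r2, −0.54 for Vmn2r3, −0.39 for Vmn2r4, 0.56 for Vmn2r5, −0.56 for Vmn2r6 and −0.54 for Vmn2r7, with standard errors of 0.38 to 0.41. Gnao1 differed by −0.21 (SE 0.39). Of 9 tested signalling genes of basal neurons 0 were called (limma, 0 at an unadjusted p under 0.05), with a median of −0.12, and the most abundant, the G protein subunits Gnb1 and Gng8, stood at −0.21 and −0.35. All 10 tested genes of the H2-Mv list lay below the median gene, with a list median of −0.87. Of the 10, 4 had an unadjusted p under 0.05 by genotype (limma), against 630 of all 20305 tested genes. H2-M9, a class Ib molecule of basal neurons, was the called one and fell from 11 ± 5.11 to 1.80 ± 0.512 TPM (log2 difference −2.44, SE 0.48, limma adjusted p = 0.0275, from 8.87e-05 to 0.751 over the alternatives). H2-M1, H2-M11 and H2-M10.4 of the same list were called lower in some of the alternatives, all 3 of them without heterozygous replicate 2 (log2 differences −1.91, −2.27 and −1.71). Lists for basal and apical neuron identity and for receptor folding and export had 0 called genes of 8, 7 and 11, with medians of 0.03, 0.12 and −0.03 (limma, 0 at an unadjusted p under 0.05). The most abundant were Nsg1 and Gng8 at 0.03 and −0.35 for basal identity, Gnai2 and the adhesion molecule Kirrel2 at 0.06 and −0.14 for apical identity, and the chaperones Pdia3 and Hspa5 at −0.12 and 0.00. Mature and immature neuron lists had 0 called of 5 and 7 (limma, 1 and 0 at an unadjusted p under 0.05), with medians of −0.23 and −0.07. Omp, the most abundant mature marker, stood at 1.28 (SE 0.53, limma adjusted p = 0.702), with the heterozygous libraries divided as given above. Omp was called higher in knockout libraries without heterozygous replicate 4 (limma adjusted p = 0.0131). With the library number as a block it was also called higher (limma adjusted p = 0.00976). Without knockout replicate 1 its log2 difference was 2.95. That value rests on heterozygous replicate 1, the only heterozygous male, because the knockout animals left are all male. The chloride channel Ano1 stood at 0.01, and the immature neuron genes Stmn1 and Tubb3, of the growing cytoskeleton, at 0.02 and −0.15.

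Haemoglobin RNA, which in the organ marks blood, was abundant and variable. Its 4 chain genes summed to 3894 to 20894 TPM in heterozygous and 4943 to 14310 TPM in knockout libraries, and 0 of 4 were called (limma, 0 at an unadjusted p under 0.05), with a median of 0.31. The most abundant, Hba-a1 and Hbb-bs, stood at 0.19 and 0.40. The fit to the 7100s animals with a sex term, in which 1 knockout library carries the genotype difference, called all 4 of them higher.

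Markers of other cell types were set beside the pair. Main olfactory neuron markers summed to 102 to 301 TPM in heterozygous and 77.8 to 93.9 TPM in knockout libraries, with 7 of 7 below the median gene, a median of −0.71 and 0 called (limma, 1 at an unadjusted p under 0.05). The most abundant of them, Stoml3 and Gng13, stood at −1.31 and −0.71. Supporting cell markers had 6 of 6 genes below the median gene (median −0.35, 2624 to 5619 and 2285 to 3947 TPM summed), and cartilage and bone markers 6 of 6 above it (median 0.52, 1299 to 5399 and 1947 to 5318 TPM). The most abundant supporting cell markers, the cytochromes Cyp2a5 and Cyp2f2, stood at −0.51 and −0.18, and the bone genes Col1a1 and Bglap at 0.88 and 0.71. Gland markers summed to 68165 to 239945 and 77670 to 187732 TPM, with a median of −0.79 over 7 genes, and the secreted carriers Obp2a and Lcn3 stood at 0.08 and 0.17. When only the 7100s animals were fitted with a sex term, 4 gland genes that lay below the median gene over all libraries (Lcn11, Mup4, Mup5 and Obp1a, from −1.24 to −0.79) turned to 4.33, 5.87, 6.23 and 6.75. That fit rests on 1 knockout female against 2 heterozygous females, so its calls are those of 1 library, and without the sex term 0 of these gland genes and 0 of the haemoglobin genes were called in the same animals (limma). Progenitor, immune and vessel lists had medians of 0.40, 0.12 and 0.29. Their most abundant genes were Sox2 and Krt5 at −0.19 and 0.16, Lyz2 and Cd74 at −0.11 and −0.07, and Plvap and Pecam1 at −0.11 and 0.30. The lists other than that of main olfactory neurons also had 0 called genes (limma, with 3 at an unadjusted p under 0.05 for cartilage and bone and 0 for the rest). By genotype, 630 of all 20305 tested genes had an unadjusted p under 0.05 (limma). The part of these cell types in the levels of the pair was not tested.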

How the data were processed

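The authors deposited TPM values, 1 column per library and 27532 genes, with replicates not pooled. The submitters' processing notes name Trim Galore 0.6.5, cutadapt 5.1, STAR 2.7.11b, deepTools 3.5.5 and the builds mm10 and GRCm38, and the counting program is not given in the sources used here. RNA of integrity above 7 was sequenced as paired 150-base reads from strand-specific libraries, per the labels' protocols. Depth was recovered from the steps between low TPM values and the summed exon lengths of GENCODE M21, and 97.2% to 97.8% of low values fell within 0.02 of whole reads.

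The 20305 genes whose mean reached 0.5 TPM were fitted with limma 3.58.1 (R 4.3.3; lmFit, then eBayes with trend) on log2(TPM + 0.5). Terms were genotype and sex, and in a second fit also genotype by sex, whose values for the pair are given without a test. P-values refer to the fitted coefficients, carry a Benjamini-Hochberg adjustment across every tested gene, and were called under 0.05. They set each coefficient against the residual variation between animals, moderated across genes. The fit was tested on simulated data with independent noise and no effect shared by the genes of a library, and the outcome is not reported here. Log2 differences on this scale understate changes of low genes.

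V2R genes were those named Vmn2r with a number. Sequences came from RefSeq (GRCm38.p6) and GENCODE M21 transcripts, and protein models were aligned with Biopython 1.88. Both members matched in each source. The members, gene lists and tests were chosen with earlier results of these data known. Named genes were the members, Tex15, Gnao1, family C, called list genes or else the 2 most abundant of a list, called or nearest neighbours, the 5 most similar proteins, the 5 most correlated genes and the 3 highest V2R genes per genotype. Snord8, Gm8518 and the gland genes other than Obp2a and Lcn3 were named after their values were seen.

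Replicate numbers did not pair the libraries, with correlations of same-numbered deviations of −0.06 to 0.10. Alternatives were other pseudocounts, filters, scaling, variance prior, designs, denominators, reference genes and each library left out. Added after the data were seen were limma-voom on recovered reads, the deposited receptor class as denominator, and ratios from reads with other or no lengths.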

Additional observations from a re-analysis of the deposited data

Results flagged for a closer look

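In 120 groups of 4 libraries, the highest or lowest library was compared with the others of its group, and a library stood apart by the 95% limit of Dixon in 7 groups. Chance gives about 1 in 20. Vmn2r88 in knockout replicate 1 was at 29.3 TPM, against 45.9 to 48.3 TPM in the other knockout libraries, and its share of V2R TPM off chromosomes 6 and 7 was 8.93%, below those of the other 3 knockout libraries. Vmn2r2, a co-receptor, was in the same library at 24 TPM, against 32.3 to 32.8 TPM. Relative to Omp, heterozygous replicate 1 stood apart for Vmn2r88 (0.547, against 0.0404 to 0.0785) and for Vmn2r89 (0.391, against 0.0208 to 0.0440), and knockout replicate 4 for Vmn2r89 (0.0952, against 0.137 to 0.139). The summed markers of supporting cells were at 5619 TPM in heterozygous replicate 2, against 2624 to 2825 TPM in the other heterozygous libraries. The cause of these values was not tested.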

How the results depend on the processing

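The Vmn2r89 genotype log2 difference stayed positive in all 22 alternatives, from 1.09 (relative to Omp) to 1.81, and that of Vmn2r88 lay between −0.72 and 0.013, with its sign reversed to 0.013 relative to the sum of Vmn2r1 to Vmn2r7. As fitted, without the shift to the median gene, the Vmn2r88 value of −0.13 ran from −1.04 in the 7100s animals to 0.36 without knockout replicate 1. It was 0.06 without heterozygous replicate 3 and −0.62 without heterozygous replicate 1. With the sex term, the −0.72 and −1.04 of the 7100s animals and the −0.62 rest on knockout replicate 1, the only knockout female. The 0.36 rests on heterozygous replicate 1, the only heterozygous male. The log2 ratio of Vmn2r89 to Vmn2r88 was −0.17 and 1.63 in heterozygous and knockout libraries per base of the longest protein-coding transcript, and 0.20 (reversed) and 2.00 with no division by length. With 1 library left out it was −0.87 to −0.71 and 0.89 to 1.18, with a difference of 1.66 to 1.95. The share of the pair in heterozygous and knockout libraries was 9.31% and 22.1% (difference 12.8 percentage points) without Vmn2r1 to Vmn2r7 in the denominator, 15.3% and 30.4% (15.1) off chromosomes 6 and 7, 4.69% and 9.63% (4.94) of V1R and V2R genes together, and 6.10% and 15.3% by the deposited receptor class, which holds 166 entries. With both members on the length of their longest protein-coding transcript it was 9.04% and 22.3% (13.3). With 1 library left out the shares were 7.52% to 7.78% and 16.7% to 18.7%, with a difference of 8.99 to 11.1.

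Neither member was called by sex in any alternative that could be fitted. The Vmn2r89 sex difference relative to the median gene reversed to −0.058 among the 7100s animals and ranged from −0.057 (without heterozygous replicate 1) to 0.42 with 1 library left out, and that of Vmn2r88 from 0.04 to 0.48. The interaction could not be fitted in the 7100s animals, with the replicate block, without heterozygous replicate 1 or without knockout replicate 1, and has no value without the sex term. Genes called by genotype numbered 371 in the 7100s animals, 184 there without the sex term, 46 in limma-voom on recovered reads, 72 with no filter, and 83 to 254 with 1 library left out. Genes called by sex numbered 178 in the 7100s animals and 11 to 91 with 1 library left out. Neighbours called numbered 0 to 1 with 1 library left out. List genes called numbered 4 in the 7100s animals without the sex term, 0 in limma-voom and with no filter, 2 with no sex term, 3 with a robust variance prior, and 0 to 4 with 1 library left out. With the library number as a replicate block, which the data gave no reason to treat as a pairing, 22 genes were called by sex and 2 list genes by genotype. With 4 animals per group, 1 male heterozygote and 1 female knockout, precision is limited by animals and not by the reads of the pair.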
